A study of Mus musculus with 42 samples.

Results

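The measurements compared here are from the thymus of irradiated mice that carry either the RP mutant allele of p53 or a wild-type allele. The rule was the genotype in the labels: all 4 irradiated thymus libraries of genotype p53 RP/- (called RP) and all 4 of genotype p53 +/- (called Het), 8 of the 42 libraries of the series. Each library is named by its genotype and the number in its label, RP-649, RP-653, RP-654 and RP-656, and Het-594, Het-595, Het-603 and Het-631. All mice carried germline p53 alterations, were 4 weeks old, were of a mixed BALB/C and C57BL6 background, and were killed 4 h after irradiation. Both groups also carry 1 minus allele, so each animal has a single RP or a single wild-type copy. Irradiated thymus of genotype p53 AD/- (AD, 4 libraries) and of p53-null mice (Null, 4 libraries) entered the same statistical fit and are given beside the results. The labels do not expand the names RP and AD, and radiation dose, sex and time of day are not given in the sources used here. RNA was taken from the whole organ, so fewer cells of a type and less RNA per cell cannot be told apart in any value below.

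The p53 protein is a transcription factor that DNA damage stabilises. It binds a pair of short half-sites as a tetramer and switches on genes that stop the cell cycle, repair DNA, start apoptosis and feed back on p53 itself. Immature T cells of the thymus are among the most radiosensitive cells of the body, and their rapid death after irradiation is known to depend on p53. The thymus also holds epithelial cells, macrophages and dendritic cells that instruct thymocytes and clear the dead ones.

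Promoter windows from RefSeq on GRCm38.p6, from 250 bases before to 50 bases after an annotated start, are shown for 3 genes that fell in RP and 1 that rose, to give examples of the motifs counted below. The first 3 hold a p53 half-site pair with no spacer, 1 mismatch each, in capitals. The last holds the E-box CACGTG, the site bound by MYC and related factors, in capitals.

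Cdkn1a: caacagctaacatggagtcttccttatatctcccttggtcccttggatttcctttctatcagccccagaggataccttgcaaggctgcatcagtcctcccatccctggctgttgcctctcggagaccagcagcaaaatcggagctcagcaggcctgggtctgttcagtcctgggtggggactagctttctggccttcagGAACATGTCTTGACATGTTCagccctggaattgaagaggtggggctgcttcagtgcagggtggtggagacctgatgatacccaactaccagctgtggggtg

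Ccng1: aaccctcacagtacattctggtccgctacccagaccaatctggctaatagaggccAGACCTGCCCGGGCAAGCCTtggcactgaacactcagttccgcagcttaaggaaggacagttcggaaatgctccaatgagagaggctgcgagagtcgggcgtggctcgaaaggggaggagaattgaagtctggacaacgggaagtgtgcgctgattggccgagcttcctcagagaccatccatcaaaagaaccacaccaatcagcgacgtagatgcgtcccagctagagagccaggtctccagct

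Gtse1: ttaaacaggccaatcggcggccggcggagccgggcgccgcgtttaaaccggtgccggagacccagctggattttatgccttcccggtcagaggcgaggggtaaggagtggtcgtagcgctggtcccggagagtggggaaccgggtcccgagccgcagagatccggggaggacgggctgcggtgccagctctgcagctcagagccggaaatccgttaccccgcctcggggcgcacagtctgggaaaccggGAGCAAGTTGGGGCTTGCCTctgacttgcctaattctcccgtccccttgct

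Tsr1: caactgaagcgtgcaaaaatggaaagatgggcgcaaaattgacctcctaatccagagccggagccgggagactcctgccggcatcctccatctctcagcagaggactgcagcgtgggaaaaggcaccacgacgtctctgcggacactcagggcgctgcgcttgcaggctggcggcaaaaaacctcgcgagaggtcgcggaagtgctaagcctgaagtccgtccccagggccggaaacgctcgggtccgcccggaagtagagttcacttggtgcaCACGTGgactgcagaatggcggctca

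The Cdkn1a window lies at chr17:29090729-29091028 on the + strand and is 1 of 2 windows of that gene, with the site starting at position -51 from the annotated start. Cdkn1a encodes the cyclin-dependent kinase inhibitor p21. The Ccng1 window, of cyclin G1, lies at chr11:40755237-40755536 on the - strand with the site at -195. The Gtse1 window lies at chr15:85859696-85859995 on the + strand, with the site at -1, and Gtse1 encodes a protein of G2 and S phase that binds p53. The window of Tsr1, a factor of small ribosomal subunit assembly, lies at chr11:74897830-74898129 on the + strand and has its E-box at position 24. A half-site pair was counted where the 4 core bases of both half-sites (CNNG in each) were kept and at most 2 of the 20 bases differed from the p53 consensus. Both motifs read the same on either strand, and no overlap between them was scored. The half-site pair was in the windows of 106 of 27025 genes (0.392%), of 62 of the 13241 tested genes with a window (0.468%), of 17 of 1639 genes that fell in RP (1.04%) and of 5 of 1399 genes that rose (0.357%). Among the p53 target lists used below it was in 4 of 60 genes (6.67%). The E-box was in 8.09% of all genes, in 10.6% of tested genes, in 9.88% of those that fell, in 15.2% of those that rose and in 8 of 32 genes of the nucleolar list (25%). In the p53 target lists the E-box was in 9 of 60 genes (15%). A match describes the letters of these windows only.

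The 8 libraries held 26398761 to 33124784 counts each. The share of counts from all transcripts of the mitochondrial genome, its ribosomal RNAs included, was 2.24 to 2.7% in RP and 2.9 to 4.24% in Het, without overlap. The protein-coding genes among them overlapped between the groups, at a summed 4968 to 5948 CPM in RP and 4971 to 6361 CPM in Het. The part of these shares in the results was not tested. No pair of libraries of 1 group was a copy of the other. Het-631 stood apart from the other 3 Het libraries on the second principal component of the 16 irradiated thymus libraries (-40.3 against 17.6 to 19.5). The first component, with 26.2% of the variance, placed all 4 Het libraries at -26.8 to -38.4 and the 12 RP, AD and Null libraries at 7.56 to 14. Xist, expressed from the inactive X chromosome, and Ddx3y, on the Y chromosome, were read to check the libraries, since sex is not in the labels. Het-595 held both at high level, 1148 and 197 CPM. CPM, the scale of the levels below, is a gene's count relative to the library total, after trimmed-mean scaling unless stated otherwise. Het-631 held Ddx3y at 150 CPM together with Xist at 132 CPM, while RP-649 and RP-653 were Xist-high and RP-654 and RP-656 Ddx3y-high. Het-594 and Het-603 were Xist-high with little Ddx3y. Counts over lists are therefore also given without both Het-595 and Het-631 where that moved them by over 1.5 times. That check leaves Het-594 and Het-603, both Xist-high, beside RP libraries of both kinds. The defining thymocyte genes were present throughout, with the 20 listed markers summing to 12590 to 14690 CPM in RP and 12220 to 15740 CPM in Het.

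Trp53, the targeted gene, did not pass the test between RP and Het. Its level was 33.1, 35.9, 32.4 and 33.2 CPM in the RP libraries and 31.3, 32.9, 31.5 and 30.1 CPM in the Het libraries, and the groups overlapped. The log2 fold change of RP over Het was 0.10 ± 0.07 (standard error), with an edgeR adjusted p of 0.333. The Null libraries averaged 19.9 ± 1.02 CPM (SD, n = 4), a level whose source was not tested, and RP exceeded Null by 0.76 ± 0.07 on the log2 scale (edgeR adjusted p = 1.12e-05).

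With the RP allele in place of the wild-type one, most of the listed p53 targets of cell death, immediate early factors and NF-kB targets and chemokines were lower after irradiation, and most listed genes of ribosome assembly, DNA replication and cholesterol synthesis were higher. The count called for replication, 20 of 34, was 10 without RP-649 and 11 without Het-595 or Het-603. The losses were the larger changes. Of 22206 genes tested with edgeR's quasi-likelihood test, 4163 were called at an adjusted p under 0.05 (18.7%): 1894 higher in RP (8.53%) and 2269 lower (10.2%). At a change of at least 2-fold the calls were 82 higher (0.369%) and 458 lower (2.06%), and at 4-fold or more 7 higher and 115 lower. The median log2 fold change of all genes tested was -0.01. The 2 groups of 4 did not overlap for 5084 genes (22.9%). Without Het-595 and Het-631 together 3733 genes were called, and leaving out any 1 of the 8 libraries gave 2907 to 4775.

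**Figure D1:**
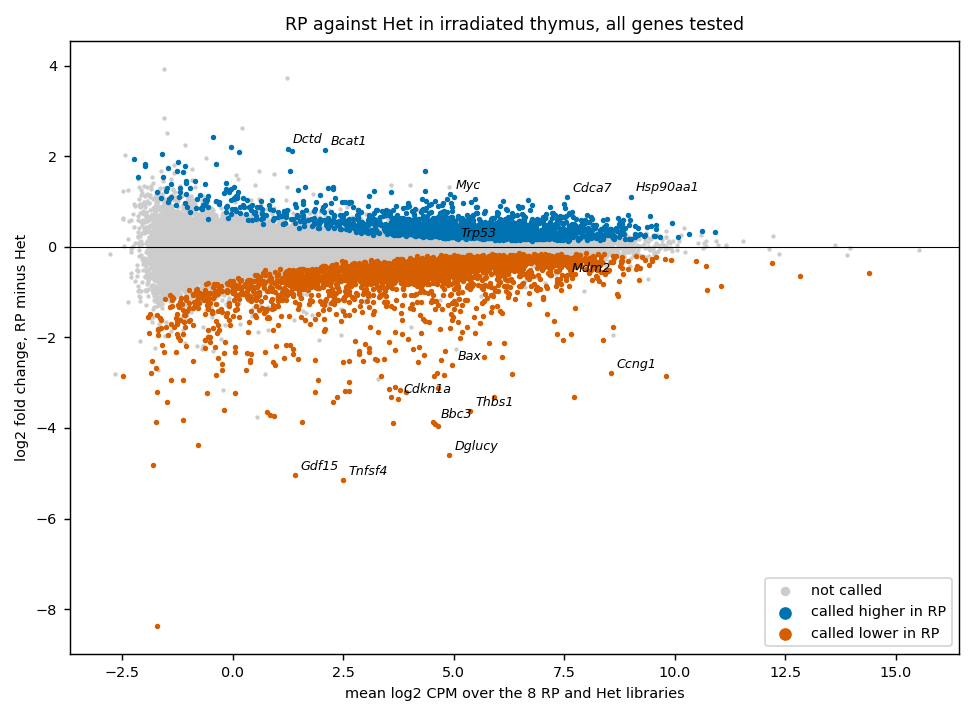
Log2 fold change of RP over Het (vertical axis) against mean log2 CPM over the 8 libraries (horizontal axis) for each of the 22206 genes tested. Blue points were called higher in RP (1894 genes), orange points lower (2269 genes), and grey points were not called. The named genes at the bottom, led by Tnfsf4 at -5.15, lie farther from 0 than those at the top, led by Dctd at 2.17. The single point near the foot of the plot is Gm26651, at -8.37, a gene of low count.

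The genes with the largest falls, among those with a mean log2 CPM of at least 1, were led by Tnfsf4. Tnfsf4 encodes OX40 ligand, a T cell costimulator. It was at 0.929, 1.26, 0.873 and 0.67 CPM in RP and at 39.5, 35.5, 36.2 and 21.3 CPM in Het, a log2 fold change of -5.15 ± 0.21 (edgeR adjusted p = 7.02e-12). Every Het library was far above every RP library, with Het-631 the lowest of the 4. Gdf15, a secreted stress cytokine, was at 0.564, 0.398, 0.53 and 0.335 CPM in RP and 18.1, 19.1, 18.1 and 5.33 CPM in Het, -5.04 ± 0.38. Here too Het-631 stood well below the other Het libraries while staying above all RP libraries. Dglucy, the mitochondrial D-glutamate cyclase, was at 5.44, 5.57, 6.05 and 7.01 CPM in RP against 136, 160, 133 and 155 CPM in Het, -4.60 ± 0.10, the smallest standard error of the 10. The other 7 were Plk2, Bbc3, Atf3, Gm13067, Ccn1, Thbs1 and 2900052L18Rik, from -3.96 to -3.42, and the groups of each of the 10 did not overlap.

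The largest rises were smaller. Dctd, which deaminates deoxycytidylate on the way to thymidylate, was at 4.31, 6.5, 4.15 and 4.88 CPM in RP and 1.5, 0.741, 1.24 and 0.9 CPM in Het, 2.17 ± 0.24 (edgeR adjusted p = 4.61e-06). Bcat1, the cytosolic branched-chain aminotransferase, was at 10.2, 9.55, 7.52 and 8.32 CPM in RP and 2.17, 1.76, 2.54 and 1.57 CPM in Het, 2.14 ± 0.32. Neither gene overlapped between the groups. Ung, the uracil-DNA glycosylase, rose by 1.33 ± 0.19, with Tubb3, Elfn2, Gm44439, Gm35315 and Gm44441 also among the 10. B4galnt4, a glycosyltransferase, rested on 1 library: 16.4 CPM in RP-653 against 2.71 to 3.22 in the other RP libraries. Its log2 fold change of 2.12 ± 0.59 lost its call without RP-653, Het-603 or Het-631. Tubb3 lost its call without Het-595, and Elfn2 without any 1 of RP-649, RP-653, RP-656, Het-594, Het-595 and Het-603.

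Of 12 well-known p53 targets, 11 were lower in RP, and the groups of the same number did not overlap. Cdkn1a was at 3.75, 4.28, 4.21 and 4.27 CPM in RP and 44.9, 42.7, 38.6 and 42.5 CPM in Het. The Het mean was 10.2 times the RP mean, with no overlap and a log2 fold change of -3.35 ± 0.11 (edgeR adjusted p = 3.39e-13). Ccng1, whose promoter site is shown above, was at 145, 137, 141 and 151 CPM in RP and 1107, 1011, 1047 and 790 CPM in Het, -2.79 ± 0.09. Gtse1 was at 40, 35.5, 32.5 and 27.7 CPM in RP and 144, 154, 134 and 161 CPM in Het, -2.13 ± 0.15. Sesn1, a stress-induced inhibitor of growth signalling, was the 1 target not called. It was at 106, 103, 98.1 and 100.5 CPM in RP and 138, 118, 120 and 96.4 CPM in Het, -0.21 ± 0.10 (edgeR adjusted p = 0.156), with Het-631 below all RP libraries, and it was called without Het-631.

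**Figure D2:**
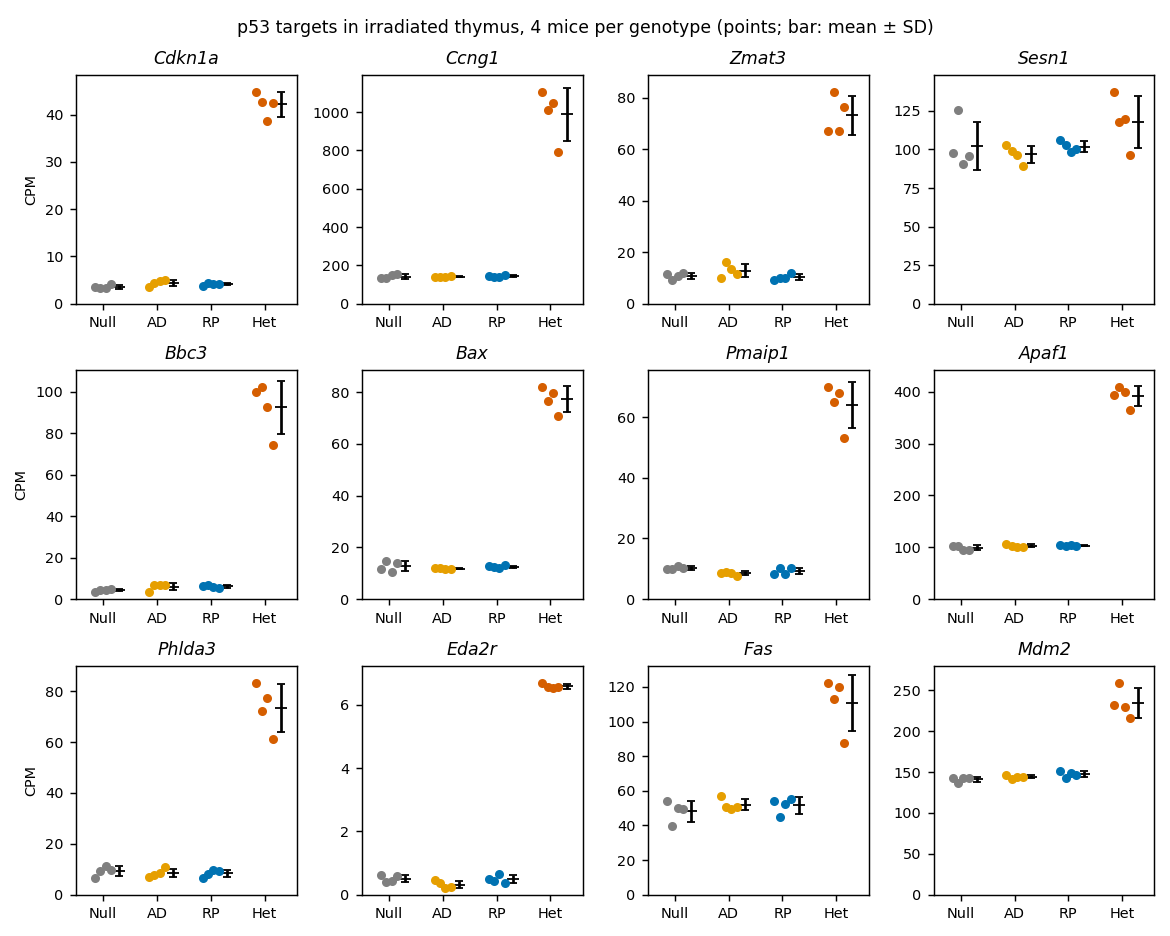
CPM of 12 p53 targets in irradiated thymus, with 1 point per mouse and the mean ± SD of 4 mice beside each genotype; each panel's axis starts at 0. In every panel but that of Sesn1 the 4 RP points lie below the 4 Het points, as for Cdkn1a, at 3.75 to 4.28 against 38.6 to 44.9 CPM.

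The p53 targets of cell cycle arrest and DNA repair fell in 13 of 26 cases and rose in 3, with a median of -0.58. Plk2, a polo-like kinase induced by stress, fell most (-3.96 ± 0.12), followed by Cdkn1a, Zmat3, an RNA-binding protein (-2.82 ± 0.13), and Ccng1. The translesion polymerase gene Polk fell (-2.44), and Polh, of the same class, rose (0.39). The other 2 that rose were Ung and Pcna (0.62), the sliding clamp of replication. Over all alternatives 13 to 16 members fell.

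The targets of cell death fell in 15 of 22 cases and rose in 1, with the lowest median of the pathway lists, -0.98. Bbc3 encodes PUMA, the BH3-only protein that drives thymocyte apoptosis. It was at 6.17, 7, 5.93 and 5.64 CPM in RP and 100.1, 102, 92.9 and 74.6 CPM in Het, -3.90 ± 0.18 (edgeR adjusted p = 8.04e-11), with no overlap. Pmaip1, of the BH3-only protein NOXA, fell by 2.78 on the log2 scale and Bax, the pore-forming effector, by 2.62. Apaf1, the scaffold of the apoptosome, was at 103 to 104 CPM in every RP library and 365 to 409 CPM in Het, -1.92 ± 0.05. The death receptor genes Fas (-1.10 ± 0.11), Tnfrsf10b (-2.23 ± 0.12) and Eda2r (-3.75 ± 0.22) fell as well. Bid, a BH3-only protein cleaved by caspase 8, rose (0.65).

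The feedback regulators fell in 5 of 9 cases, with a median of -0.51, and none rose. Mdm2, the ubiquitin ligase that degrades p53, was at 152, 142, 149 and 147 CPM in RP and 232, 260, 230 and 216 CPM in Het. The groups did not overlap, and the log2 fold change was -0.67 ± 0.05 (edgeR adjusted p = 5.85e-08). Ppm1d, the phosphatase WIP1, fell by 0.98 and Zfp385a by 1.59. Among p53 targets of metabolism 8 of 17 tested fell (1 more, Sco2, was below the count filter), with a median of -0.53. After Dglucy came Cpt1c, a brain-type carnitine palmitoyltransferase (-2.54 ± 0.18), Slc19a2, a thiamine transporter (-2.02 ± 0.09), and Lpin1, the phosphatidate phosphatase lipin 1 (-1.42 ± 0.08). The TNF superfamily list fell in 9 of 26 cases and rose in 2, where 10.2% of all genes tested fell and 8.53% rose. The 2 that rose were Tnfsf11 (0.70) and Cd27 (0.25). Tnfsf11 lost its call without RP-653, Het-595, Het-603 or Het-631, and Cd27 without RP-649, RP-654, RP-656 or Het-594. Its largest falls were Tnfsf4, Eda2r, Tnfsf8 (-2.36 ± 0.16), which encodes CD30 ligand, and Tnfrsf10b.

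Rapidly induced transcription factors were lower in RP across most of their list. Of 24 immediate early genes 19 fell and 1, the phosphatase gene Dusp2, rose (0.56), with a median of -0.77. The call of Dusp2 was lost without any 1 of RP-649, RP-653, RP-656, Het-595, Het-603 and Het-631. Fos, a subunit of the AP-1 dimer, was at 4.41, 4.54, 4.52 and 3.99 CPM in RP and 38.8, 43.3, 35.3 and 31.1 CPM in Het, -3.09 ± 0.18 (edgeR adjusted p = 1.01e-09). Its partner Jun was at 9.88, 14.6, 13.3 and 12.9 CPM in RP and 59, 71.2, 60.9 and 56.9 CPM in Het, -2.29 ± 0.15. Neither overlapped between the groups. Atf3, a stress-induced bZIP factor, fell most (-3.88 ± 0.21), and Jund, Egr2, Egr3 and Fosl1 were not called, at -0.49 to 0.03.

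Most listed chemokine and cytokine genes fell, while the NF-kB subunits themselves mostly did not pass the test. In this list of 24, 15 fell and none rose, with a median of -0.71. Ccl2, the monocyte attractant, was at 1.13, 1.59, 2.15 and 1.61 CPM in RP and 16.4, 18.2, 13.6 and 16.2 CPM in Het, -3.31 ± 0.24 (edgeR adjusted p = 1.72e-08). Ccl3 (-3.64 ± 0.33), Ccl7 (-3.20 ± 0.32) and the interleukin gene Il1a (-3.19 ± 0.19) fell to a like extent, as did Ccl4, Il6 and Il1b (-2.84, -2.59 and -2.52). The chemokine genes Cxcl10 (-0.31 ± 0.11) and Ccl5 (-0.54 ± 0.24) were not called. Nfkb1, Nfkb2, Relb and the inhibitor gene Nfkbia lay between -0.21 and -0.08 and were not called, and Rel fell by 0.35, a call kept without RP-653 or Het-631 and lost without any other single library. Of 20 matricellular and matrix genes 16 fell and none rose, with a median of -0.68. Ccn1, a secreted integrin ligand, was at 6, 6.1, 7.11 and 5.18 CPM in RP and 68.9, 101, 63 and 121 CPM in Het, and Thbs1, thrombospondin 1, at 8.69, 15.3, 12 and 13 CPM against 98.5, 194, 85.5 and 226 CPM. Both varied among Het mice, with Het-595 and Het-631 the highest, and neither overlapped with RP.

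Of 16 tested integrated stress response genes 9 were not called, among them Atf4 (-0.064) and Ddit3 (-0.075), and the list median was -0.056. Gdf15, Sesn2 (-2.51 ± 0.14) and Ppp1r15a (-0.70 ± 0.09) fell. The 4 that rose were enzymes of serine and one-carbon metabolism, Shmt2, Phgdh, Mthfd2 and Psat1 (1.06, 0.66, 0.57 and 0.51). Shmt2 lost its call without RP-653, Het-595 or Het-631, and without Het-595 and Het-631 together the count that rose was 2. Among 20 NRF2 antioxidant genes 3 fell, 2 rose and 15 were not called, where 10.2% of all genes tested fell and 8.53% rose. Hmox1, haem oxygenase 1, fell most, from 43.9, 49.1, 38.9 and 19.9 CPM in Het to 11.2, 9.92, 9.82 and 9.78 CPM in RP (-1.90 ± 0.21).

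**Figure D3:**
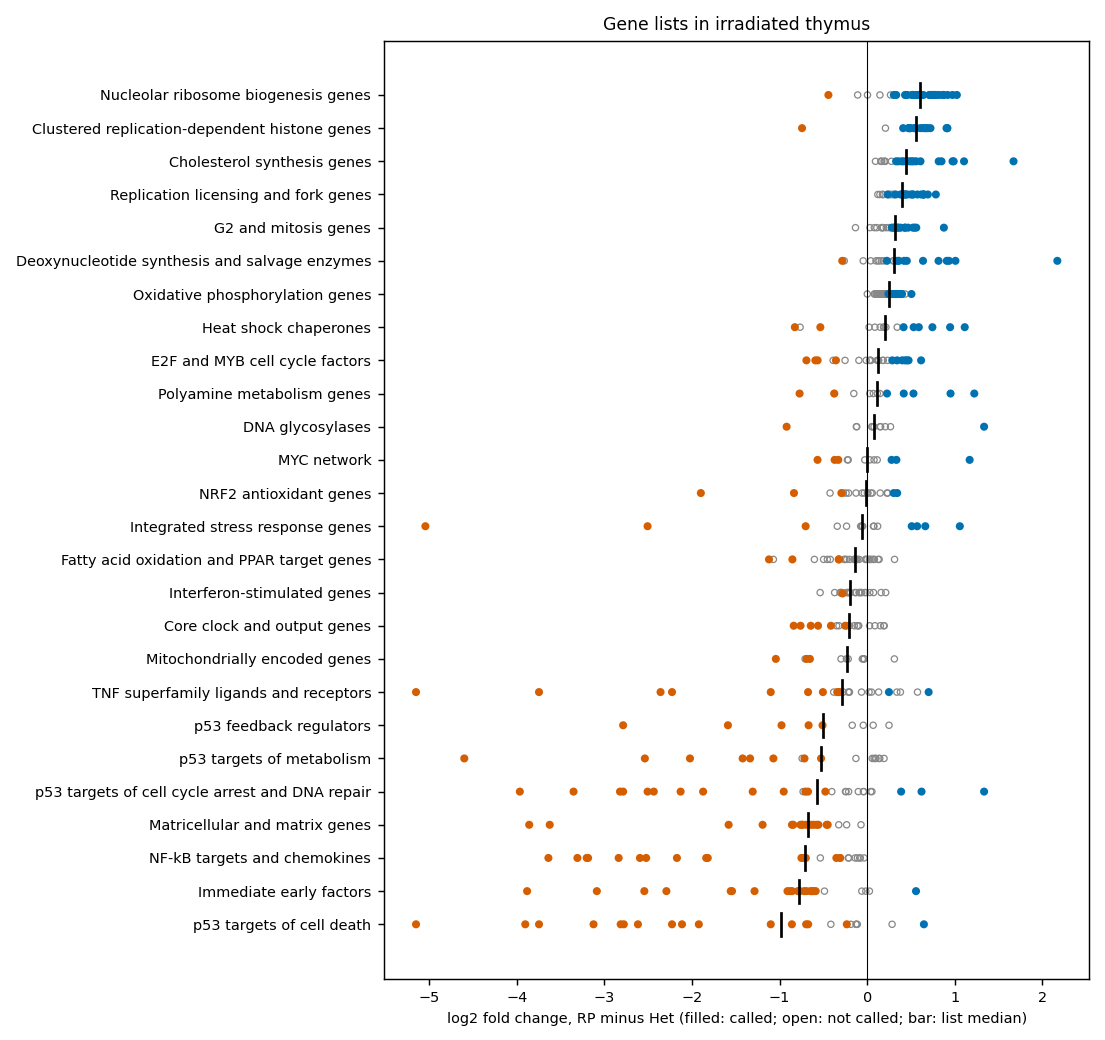
Log2 fold change of RP over Het for each tested member of the 26 lists that are not cell type markers, ordered by the list median (black bar). Filled points were called and open points were not. The medians run from -0.98 for p53 targets of cell death to 0.61 for nucleolar ribosome biogenesis genes.

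Most listed genes of ribosome assembly rose. Of 36 nucleolar genes 30 rose, 1 (Wdr12, -0.44) fell, and the groups did not overlap for 32. Their median was 0.61. Nop58, a core protein of the box C/D particles that methylate ribosomal RNA, was at 130, 124, 125 and 127 CPM in RP and 72.5, 68.4, 71 and 65 CPM in Het, 0.87 ± 0.09 (edgeR adjusted p = 1.41e-06). Dkc1, the pseudouridine synthase dyskerin, rose by 1.02 ± 0.19, Gnl3, nucleostemin, by 0.97 ± 0.15, and Tsr1, whose promoter is shown above, by 0.75 ± 0.12. Without both Het-595 and Het-631 the count that rose was 18. Myc, a regulator of this program, was at 41.4, 54.1, 42.4 and 42.5 CPM in RP and 21.4, 18.7, 17.7 and 22.4 CPM in Het, 1.17 ± 0.17 (edgeR adjusted p = 0.000193). Of its antagonists, Mxd1 (-0.57 ± 0.12), Mxd4 (-0.37 ± 0.07) and Mxi1 (-0.33 ± 0.07) fell, Mxd3 rose (0.33 ± 0.09) and Mnt was not called (0.11). The call of Mxd3 was lost without RP-649, Het-594, Het-595 or Het-603. The network list had 3 of 12 higher (1 without RP-649) and 3 lower, where 8.53% of all genes tested rose and 10.2% fell. The polyamine list rose in 5 of 13 cases and fell in 2. Srm, spermidine synthase, rose by 1.22 ± 0.28 and Mtap, which salvages methylthioadenosine, by 0.95 ± 0.16, while Sat1, which acetylates polyamines for breakdown, fell by 0.77. The polyamine count that rose was 3 without RP-649, RP-656, Het-603 or Het-631, and 2 without Het-595 and Het-631 together.

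Replication genes were higher in RP, with no member lower. Of 34 licensing and fork genes 20 rose, with a median of 0.39. Mcm6, a subunit of the replicative helicase, was at 278, 268, 267 and 265 CPM in RP and 162, 132, 154 and 178 CPM in Het, 0.78 ± 0.12 (edgeR adjusted p = 0.000205), without overlap. Rfc4, of the clamp loader (0.69 ± 0.10), the checkpoint kinase gene Chek1 (0.65 ± 0.10) and Tipin, of the fork protection complex (0.64 ± 0.10), followed. The count was 10 without RP-649 and 11 without Het-595 or Het-603. Of 23 deoxynucleotide enzymes 11 rose, among them Dctd, Dctpp1 (1.01 ± 0.13) and Shmt1 (0.91 ± 0.10), and Dck fell by 0.28. Nme1 and Nme2 are neighbouring near-identical genes whose reads may be split between them, and their rises (0.81 and 0.93) are uncertain. The call of Nme2 was kept without RP-653 or Het-603 and lost without any other single library. Of 11 DNA glycosylases, Ung rose, Neil1 fell (-0.92 ± 0.16) and 9 were not called, where 8.53% of all genes tested rose and 10.2% fell.

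Mitotic genes showed the same direction with a wide spread between animals. Of 30 G2 and mitosis genes 13 rose and none fell, with a median of 0.32. Ccnb1, cyclin B1, was at 78.1, 69.2, 54.9 and 48.8 CPM in RP and 32.9, 34.8, 26.6 and 42.6 CPM in Het, 0.88 ± 0.15 (edgeR adjusted p = 0.000487), and Het-631 was the highest Het library. Cdk1, its kinase, was at 138, 118, 102 and 103 CPM in RP and 75.3, 72.5, 72 and 97.2 CPM in Het, 0.54 ± 0.12. The count of members that rose was 25 without Het-631, also with Het-595 left out as well, 8 without RP-653, 5 without RP-649, Het-594, Het-595 or Het-603, and 6 with only the 8 libraries in the fit. Among 24 E2F and MYB factors 7 rose and 4 fell, where 8.53% of all genes tested rose and 10.2% fell. The cyclin E1 gene Ccne1 rose most (0.61 ± 0.14). The pocket protein genes Rb1 (-0.69 ± 0.08) and Rbl2 (-0.57 ± 0.06) were among the 4 that fell. The count that rose was 12 without Het-631, 11 without both Het-595 and Het-631, and 4 without RP-649.

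The sterol pathway rose. Of 25 cholesterol synthesis genes 16 rose and none fell, with a median of 0.44 and no overlap of the groups for 19. Cyp51, the lanosterol demethylase, was at 46.3, 45.8, 47.3 and 46.9 CPM in RP and 21.9, 19.8, 21.8 and 23.2 CPM in Het, 1.10 ± 0.07 (edgeR adjusted p = 5.41e-09). Sqle, squalene epoxidase, rose by 0.97 ± 0.11 and Hmgcs1, an early enzyme of the pathway, by 0.85. Of 58 nuclear genes of oxidative phosphorylation 23 rose and none fell, but by little, with a median of 0.25. Cycs, cytochrome c, rose most (0.51 ± 0.10). That count was 11 without RP-649, 15 without RP-654, 12 without RP-656, 10 without Het-595 and 4 without Het-595 and Het-631. In contrast, 3 of 12 tested protein-coding genes of the mitochondrial genome fell (mt-Nd5, mt-Nd6 and mt-Nd4) and none rose, with a median of -0.23, and 1 fell without RP-649 or RP-653. The call of mt-Nd4 was also lost without RP-654, and that of mt-Nd6 without RP-656, Het-594, Het-603 or Het-631.

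Chaperones were mixed. Hsp90aa1, the inducible HSP90, was at 776, 651, 769 and 831 CPM in RP and 386, 343, 366 and 304 CPM in Het, 1.11 ± 0.10 (edgeR adjusted p = 6.39e-07), without overlap. Hspd1, the mitochondrial HSP60, rose by 0.95 ± 0.12. In the list 6 of 16 rose, where 8.53% of all genes tested rose and 10.2% fell. Hspa1b, which has a near-identical neighbour and is therefore uncertain, fell by 0.83, a call lost without RP-649 or Het-595, and Bag3 fell by 0.54.

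Replication-dependent histone genes were higher in RP: 16 of 22 tested rose and 1, Hist2h3c2, fell, with a median of 0.56. The fall of Hist2h3c2 lost its call without RP-649, RP-654, RP-656, Het-594 or Het-631. Hist2h2ac was at 18.3, 19.8, 14.5 and 17.9 CPM in RP and 10.9, 9.42, 10.1 and 7.13 CPM in Het, 0.91 ± 0.17 (edgeR adjusted p = 0.000823), and the groups did not overlap. The list also summed to more in RP, 7150 to 8398 CPM, than in Het, 4954 to 6059 CPM. Many of these genes are near-identical to others of the same histone type, so single members are uncertain. Their transcripts mostly lack poly(A) tails, so their level depends on how RNA was selected, which is not given in the sources used here. The count that rose was 9 without RP-649, Het-603 or Het-631, 10 without RP-653 or Het-595, 6 without Het-595 and Het-631, and 9 with no count filter.

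Of 19 clock and output genes 6 fell and none rose, where 10.2% of all genes tested fell and 8.53% rose. The list median was -0.20, and the falls were led by Bhlhe40 (-0.84 ± 0.09) and Tef (-0.76 ± 0.09). Of 30 fatty acid oxidation and PPAR target genes 4 fell and 26 were not called, where 10.2% of all genes tested fell. Cpt1a, the gate of mitochondrial fatty acid entry, was at 85.5, 74.6, 75.5 and 81.9 CPM in RP and 141, 149, 130 and 154 CPM in Het (-0.85 ± 0.09). Of 25 interferon-stimulated genes 1, Gbp2, fell (-0.29 ± 0.07), and 16 fell without Het-631, a library in which the list was the lowest of all 8, or 13 without both Het-595 and Het-631.

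Many markers of thymic epithelium, macrophages and dendritic cells were lower in RP, and several of the marker counts below depended on Het-631. Of all genes tested 8.53% rose and 10.2% fell. Thymocyte markers were mixed, 5 higher and 2 lower of 20, with a median of 0.14. Cd4 and Cd8a were not called (-0.12 and 0.13), and Rag1, the recombinase of receptor rearrangement, fell by 0.34, a call lost without RP-653, Het-594 or Het-595. The thymocyte count that rose was 0 without RP-649, 1 without RP-654, RP-656 or Het-595, and 2 without Het-603. Of 20 genes of mature T cells and selection 4 rose, with Ccr4 first (0.79 ± 0.19), and 3 fell, 5 without Het-631. The median of that list was 0.02. Thymic epithelial markers fell in 10 of 18 cases, with a median of -0.39 and a summed level of 2738 to 3270 CPM in RP and 3808 to 4648 CPM in Het. Krt18, a simple-epithelium keratin, was at 249, 246, 257 and 252 CPM in RP and 437, 450, 374 and 517 CPM in Het, -0.83 ± 0.08 (edgeR adjusted p = 1.10e-06), while Foxn1, the factor that defines this lineage, was not called (-0.09).

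Macrophage markers fell in 8 of 18 cases, with a median of -0.45, and their sum was 913 to 1027 CPM in RP and 801 to 1649 CPM in Het. Spic, a factor of iron-recycling macrophages, was at 9.65, 6.97, 7.24 and 8.44 CPM in RP and 44.9, 37.9, 55.5 and 16.3 CPM in Het, -2.26 ± 0.28 (edgeR adjusted p = 4.62e-05). Csf1r and Adgre1, the general macrophage receptors, were not called (-0.19 and -0.26). The count that fell was 14 without Het-631, also with Het-595 left out as well, 5 without RP-649, RP-653, RP-654 or Het-603, and 4 without Het-594. Dendritic cell markers fell in 7 of 16 cases, led by Clec9a (-0.62 ± 0.19, a call lost without RP-649, RP-653 or Het-603), and in 12 without Het-631, 11 without both Het-595 and Het-631, 4 without RP-653, Het-594 or Het-595, 3 without RP-654 and 2 without RP-649 or Het-603. Neutrophil markers summed to 112 to 159 CPM in RP and 44.5 to 616 CPM in Het. That range was set by Het-631 at the low end and Het-603 at the high end, with Het-594 at 279 and Het-595 at 199 CPM. Of 13, 3 fell, 11 without Het-631, also with Het-595 left out as well, and 1 without RP-654 or Het-603.

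Of 12 endothelial markers 5 fell, 3 without RP-653, 2 without RP-649, RP-654, RP-656 or Het-631, and 1 without both Het-595 and Het-631. Beside this count and those that follow, 10.2% of all genes tested fell and 8.53% rose. Of 16 fibroblast and mesenchymal markers 3 fell, 1 of them without RP-656, and Thy1, which thymocytes also express, rose (0.42 ± 0.06). Of 18 B and plasma cell markers 1 fell, the plasma cell gene Mzb1 (-1.89 ± 0.29), 3 without Het-631 and 5 without both Het-595 and Het-631. Of 13 tested cytotoxic lymphocyte markers 2 fell, Nkg7 and Fcer1g, the second with its call lost without RP-653, RP-656 or Het-603. No adipocyte or hepatocyte marker was called. Without trimmed-mean scaling, Alb was at 41 CPM in RP-653, 14 CPM in RP-656 and at most 1.7 CPM in the other 6 libraries. Of 10 erythroid markers 1 was called, Tfrc, the transferrin receptor that dividing cells also carry (0.88 ± 0.13), and the globin genes lay at -0.81 to -0.72 without passing the test. The part of cell composition in the gene lists above was not tested.

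**Figure D4:**
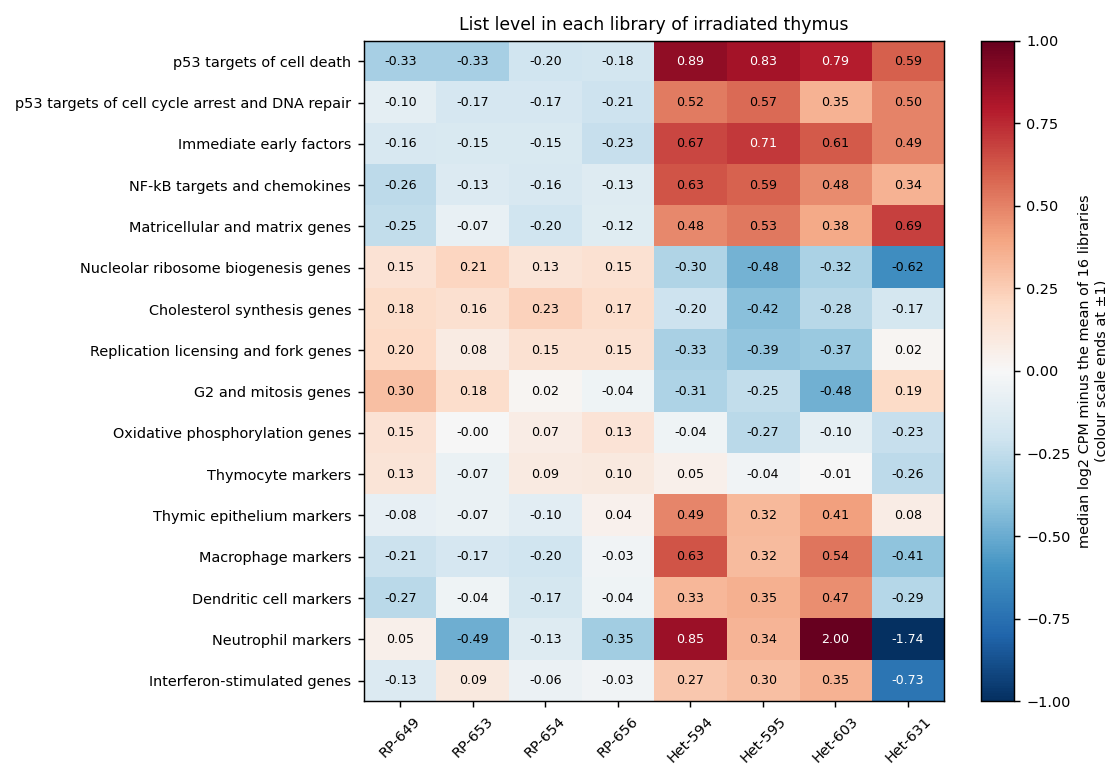
For 16 lists (rows) and the 8 RP and Het libraries (columns), the median over members of log2 CPM minus the gene's mean over the 16 irradiated thymus libraries. The 4 Het columns are all positive for p53 targets of cell death (0.59 to 0.89) and negative for nucleolar genes (-0.62 to -0.30), while Het-631 departs from the other Het columns for neutrophil (-1.74), interferon-stimulated (-0.73), macrophage and mitotic lists.

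The RP values were set beside those of AD, the other mutant allele, each against the same Het libraries. For Cdkn1a the log2 fold change was -3.35 for RP and -3.26 for AD, for Bbc3 -3.90 and -3.93, for Bax -2.62 and -2.71, and for Mdm2 -0.67 and -0.70. For Myc it was 1.17 and 0.97, and for Nop58 0.87 and 0.67. The direct test of RP against AD called 0 of 22206 genes with edgeR (0%). In that test 1525 genes had an unadjusted p under 0.05 (6.87%), DESeq2 called 17, and edgeR called 47 with only the RP and AD libraries in the fit. Of the 12 p53 targets 2 had an unadjusted p under 0.05. They were Zmat3 (-0.30) and Eda2r (0.60). Cyp51 was at 0.39 ± 0.07 in RP minus AD (edgeR adjusted p = 0.354) and Hsp90aa1 at 0.46 ± 0.10 (edgeR adjusted p = 0.499). Of 25 cholesterol genes 24 lay above 0 in RP minus AD, 7 at an unadjusted p under 0.05, with a median of 0.19, and none was called.

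Histone genes lay above both AD and Null in RP, without a call. The list median was 0.52 in RP minus AD and 0.48 in RP minus Null, while it was 0.03 in AD minus Het and -0.08 in Het minus Null. All 22 tested members lay above 0 in both RP minus AD and RP minus Null. In the first 21 and in the second 18 had an unadjusted p under 0.05, and the lowest edgeR adjusted p was 0.626 and 0.534. Many of these genes have transcripts nearly identical to others of the same histone type, and the members are not independent of one another.

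**Figure D5:**
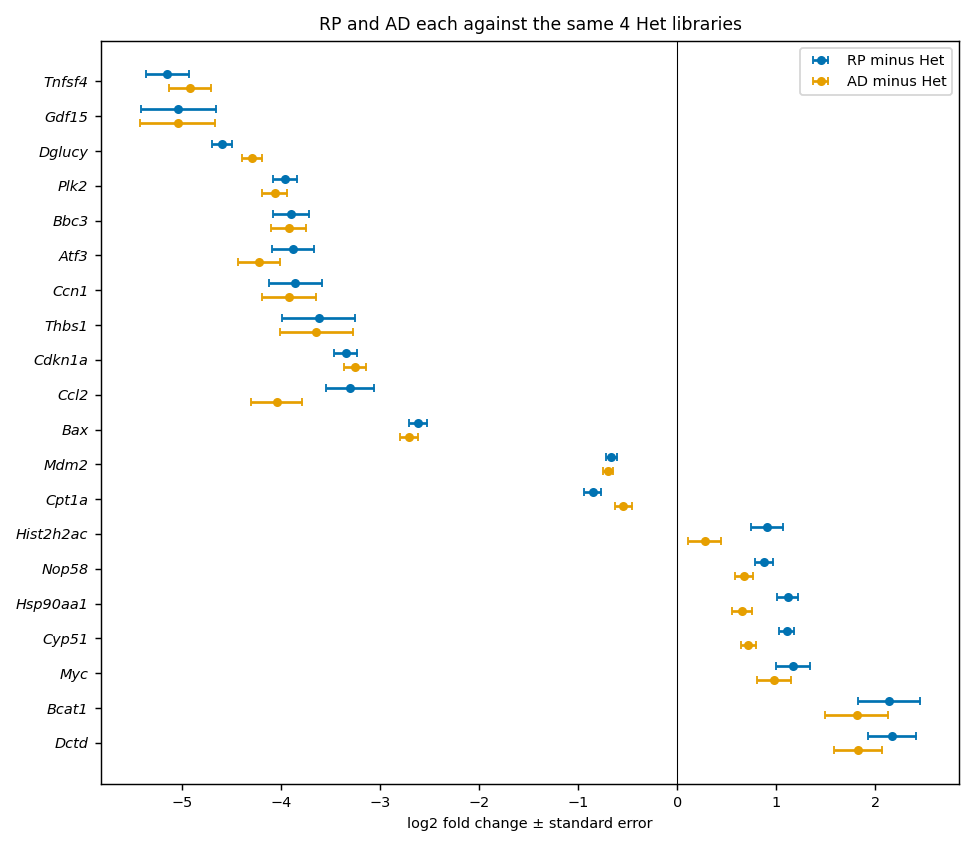
Log2 fold change ± standard error of 20 genes for RP (blue) and AD (orange), each against the same 4 Het libraries. The bars of the 2 alleles lie close for Bbc3 (-3.90 and -3.93) and lie apart for Hist2h2ac (0.91 and 0.28), Cyp51 (1.10 and 0.72) and Ccl2 (-3.31 and -4.05). Both sets of bars share the Het libraries, so their distance does not test RP against AD. The direct test of RP against AD called 0 of 22206 genes with edgeR.

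Against Null thymus, few genes were called. The 2269 genes that fell in RP against Het had a median of -0.57 in that contrast and -0.04 in RP minus Null, and the 1894 that rose had medians of 0.37 and 0.01. Both sets were chosen by RP minus Het, so the sign of their median in that contrast was fixed in advance. Both contrasts also use the same RP libraries. RP against Null called 7 genes (0.0315%), all on chromosome 11, the chromosome of Trp53. They were Trp53, Nlrp1c-ps, Nlrp1a, Ybx2 and Gucy2e, higher in RP (0.0225%), and Gm6685 and Xaf1, lower (0.00901%). Without RP-656 or Null-604 the count was 4, and DESeq2 called 31, 21 higher and 10 lower. Het against Null, on the same fit, called 4257 (19.2%), and 2208 with only those 2 groups in the fit. RP and Het were then compared within 10 Mb of Trp53, since an allele carries its neighbouring sequence. There 92 of 420 genes were called (21.9%, against 18.7% of all genes), 50 higher and 42 lower, and 4 of them at 2-fold or more. Without both Het-595 and Het-631 the count was 75. Ybx2, Xaf1 and Nlrp1a, which differ from Null, were not called between RP and Het (0.31, -0.06 and 0.00), but Ybx2 was called without Het-631. Wrap53, which overlaps Trp53 head to head, fell by 0.42 ± 0.07, and the strand of counting is not given in the sources used here, so reads of the 2 genes cannot be told apart where they overlap.

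Levels in unirradiated thymus give a scale for these differences, with 3 Het libraries on a joint scaling of 24 thymus libraries and no test. Basal thymus of genotype RP is not analysed here. Cdkn1a averaged 4.11 CPM in irradiated RP, 41.9 in irradiated Het and 5.06 in basal Het. Bbc3 averaged 6.16, 91.8 and 6.46 CPM in the same order, and Mdm2 147, 233 and 143. For these targets the irradiated RP level lay near the basal Het level. Among genes that were higher in RP, Myc averaged 44.9 CPM in irradiated RP, 19.9 in irradiated Het and 43.4 in basal Het, and Nop58 126, 68.7 and 131. Other genes of that direction lay between: Ung averaged 7.63, 3.01 and 14.9 CPM, and Ccnb1 62.5, 34 and 92.2. Cyp51 averaged 46.4, 21.5 and 33.8 CPM, so that its irradiated RP level was the highest of the 3.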

How the data were processed

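The authors deposited 1 table of raw read counts per gene for all 42 libraries (49585 genes), with whole-number values. Per the submitters' processing notes, STAR 2.6.0b and DESeq2 were used and the build was GRCm38; the counting tool, strand setting and annotation are not given in the sources used here. Gene names came from GENCODE M21, matching 49326 of 49585 identifiers. Samples were grouped by the genotype and tissue in the labels, and columns were matched by name.

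The deposited counts of the 16 irradiated thymus libraries were fitted together in edgeR 4.0.16 (R 4.3.3; filterByExpr, TMM, robust quasi-likelihood test, Benjamini-Hochberg over 22206 genes), with no covariate. RP and Het libraries held 26398761 to 33124784 counts, and both this depth and the 4 animals a group limit the precision. The p-values weigh a difference between genotypes against the spread between mice within genotypes. That spread was estimated over all 16 irradiated libraries, AD and Null included, with information shared across genes. DESeq2 1.42.0 on the same counts was an alternative, and so were scaling by RLE, testing without a filter, Xist as a covariate, fitting the compared groups alone, and leaving out each library; a Ddx3y covariate and leaving out both Het-595 and Het-631 were chosen after seeing the data. The script was tested on simulated data.

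Named genes were Trp53, 12 p53 targets, the 10 largest called changes each way at a mean log2 CPM of at least 1, up to 4 called members of each of 39 lists, genes near Trp53, promoter examples and genes called in RP against AD. Other list members named with a value, and Gm26651, Wrap53, Alb and the 7 genes called against Null, were chosen after their values were seen. The members and lists were chosen with earlier results of these data known. Lists were described by counts and medians, with no test. Some genes that the rule names are not reported here.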

Additional observations from a re-analysis of the deposited data

Results flagged for a closer look

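Each named gene was checked in RP and in Het for 1 library far from the other 3, by the gap to its nearest neighbour as a share of the group's range on the log2 scale. Of 368 such groups 26 (7.07%) passed Dixon's limit for 4 samples, and chance passes about 1 in 20. Het-631 accounted for 11, RP-653 for 8, RP-649 for 6 and Het-595 for 1. Values are CPM in the library against the range of the other 3 of its group.

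In Het-595 the highest value of its group was held by Tnfrsf10b at 21 against 17 to 17.1. In Het-631 the highest value of its group was held by Cdk1 at 97.2 against 72 to 75.3, Ccne1 at 30.9 against 22 to 22.5 and Il1b at 18.3 against 13.1 to 13.7. In Het-631 the lowest value of its group was held by Gdf15 at 5.33 against 18.1 to 19.1, B4galnt4 at 0.675 against 1.56 to 1.85, Gbp2 at 63.8 against 79 to 81.6, Ccr4 at 14.1 against 26.3 to 28.2, Cd44 at 53.2 against 87.5 to 89.4, Mertk at 12.4 against 19.7 to 21.4, Cd74 at 491 against 754 to 787 and Dusp2 at 25.1 against 43.9 to 48.8. In RP-649 the highest value of its group was held by Ppm1d at 55.6 against 49.8 to 50.4 and Hmox1 at 11.2 against 9.78 to 9.92. In RP-649 the lowest value of its group was held by Cdkn1a at 3.75 against 4.21 to 4.28, Tnfsf8 at 2.75 against 3.32 to 3.4, Ccl7 at 0.531 against 1.37 to 1.49 and Csf3r at 3.18 against 3.65 to 3.68. In RP-653 the highest value of its group was held by B4galnt4 at 16.4 against 2.71 to 3.22, Myc at 54.1 against 41.4 to 42.5, Srm at 19.9 against 17.8 to 17.9, Ccr4 at 56.7 against 35.5 to 38.1 and Pus7 at 31.1 against 26.7 to 26.9. In RP-653 the lowest value of its group was held by Tef at 26 against 29 to 29.2, Rag1 at 3705 against 4345 to 4440 and Pcna at 374 against 452 to 469.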

How the results depend on the processing

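The call count of RP against Het (4163) stayed within 1.5 times under every alternative run, from 2907 without RP-649 to 4775 without Het-631, with 4719 by DESeq2 and 3494 without the count filter. RLE scaling gave 4154. RP against AD went from 0 to 17 calls with DESeq2, 47 with only the 8 libraries in the fit and 4 without AD-630 (0 to 4 over single libraries left out). RP against Null went from 7 to 31 with DESeq2 and to 4 without RP-656 or Null-604 (4 to 8 over single libraries left out). Het against Null went from 4257 to 2208 with only those 8 libraries. The causes were not tested. Of 179 named genes called, 45 lost the call under some alternative and none changed direction; of the 7 not called, Sesn1 and Ybx2 were called without Het-631. Among 39 list medians 6 changed sign under some alternative: those of the MYC network, fatty acid oxidation, mature T cell, B cell, cytotoxic and adipocyte lists. With Xist as a covariate, 7 fatty acid oxidation genes and 7 fibroblast markers fell in place of 4 and 3, 5 macrophage and 4 dendritic cell markers in place of 8 and 7, and 2 thymocyte markers rose in place of 5. With only the RP and Het libraries, 5 macrophage markers, 2 dendritic cell markers, 1 mature T cell gene and 1 mitochondrially encoded gene fell, and 1 thymocyte marker and 1 MYC network gene rose. Without the count filter, 5 macrophage markers and 1 mitochondrially encoded gene fell and 1 thymocyte marker rose. No paired analysis was possible because the groups hold different mice whose label numbers are not shared. With 4 mice a group, small changes of low-count genes are not detectable at this depth, and sex, the Xist and Ddx3y reads of Het-595 and the position of Het-631 limit what can be read from single Het libraries.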
